A study of Mus musculus with 6 samples.

Results

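Receptors, ligands and direct targets of the Notch pathway, 10 genes in all, were followed through the single-cell RNA-seq libraries of mouse lung and brain cortex. They were the receptors Notch1, Notch2, Notch3 and Notch4, the ligands Jag1, Dll1 and Dll4, and the target genes Hey1, Heyl and Hes1, taken by symbol, and all 10 were found once in each library among 56884 annotated genes. Notch receptors are cut after they bind a ligand on a neighbouring cell, and the freed intracellular domain joins the DNA-binding protein RBPJ to switch on targets such as the Hes and Hey repressors. In vessels, endothelial ligands and mural NOTCH3 form a well-known pair through which endothelial cells instruct pericytes and smooth muscle cells, and DLL4 acting on NOTCH1 restrains sprouting and favours arterial fate.

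The study asked what happens to lung and brain when pericytes lose a secreted factor. It comprised 6 libraries, each from 2 pooled mice, with 1 library per genotype: Bdnf lox/lox and Bdnf iPCKO lung at postnatal day 21 (P21), Hgf lox/lox and Hgf iPCKO lung at P21, and Nodal lox/lox and Nodal iPCKO cortex at P12. The iPCKO mice were homozygous for the floxed gene and carried the Pdgfrb(BAC)-CreERT2 transgene, which acts in pericytes and other Pdgfrb-expressing cells, whereas the lox/lox littermates carried the floxed alleles without the transgene. Mice of all 6 groups received 3 intraperitoneal injections of 50 µg tamoxifen, at P1 to P3. Lung suspensions had been depleted of CD45+ and Ter119+ cells, and the cortex had been freed of meninges and myelin debris. The transgene and the deletion cannot be told apart in any of these comparisons, and with 1 library per genotype no test between genotypes was possible.

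Levels were unique molecular identifier (UMI) counts summed over the cells of 1 type in 1 library and divided by all UMIs of those cells, as the count for every 1000000 UMIs (CPM). Cell types were assigned to barcodes of at least 1500 UMIs, or at least 700 UMIs in the Hgf libraries, from marker genes that include no Notch pathway gene. Of 80489 such barcodes, 67604 were given 1 type. Intervals on levels are exact Poisson 95% intervals, those on log2 ratios are exact conditional 95% intervals, and both cover counting error only, not differences between mice. Counting was from the 3′ end, so levels are compared across cell types within a gene and not between genes.

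The libraries held 33900000 to 186700000 UMIs (rounded), and gated pericytes numbered 102 and 125 in the Bdnf lox/lox and iPCKO lungs, 85 and 228 in the Hgf pair, and 280 and 425 in the Nodal cortex pair. The pericyte markers of the gate summed to 10224 to 12990.2 CPM in lung pericytes and to 35816 to 41138 CPM in cortex pericytes, with no marker at 0. In pericytes, Nodal was at 116 CPM in the control and not seen in the 425 pericytes of the iPCKO cortex, a count that allows up to 0.706% of cells with a Nodal UMI (taking 3 cells as the floor, for counting error only). Hgf was at 144 CPM in the control and 26.7 CPM in the iPCKO lung, and Bdnf was seen in 5 and 3 UMIs. Pdgfrb itself, which the BAC transgene carries, was at 674 and 2202 CPM in pericytes of the Bdnf pair and at 820 and 2058 CPM in those of the Nodal pair, and it was left out of the gate for that reason.

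The expression of the 10 genes sorted into a mural set, an endothelial set and a broad set in the control libraries, as the map of relative levels shows. Notch3 and Heyl were highest in pericytes of all 3 control libraries. Notch4, Dll4 and Hey1 were highest in arterial or capillary endothelial cells of each, and Dll1 in venous endothelial cells. Notch1, Notch2, Jag1 and Hes1 made up the broad set, each with its own pattern over vascular, epithelial and glial cells. Of these, Notch1 was high in arterial endothelial cells and pericytes of the lung and low in AT1 and AT2 cells.

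**Figure D1:**
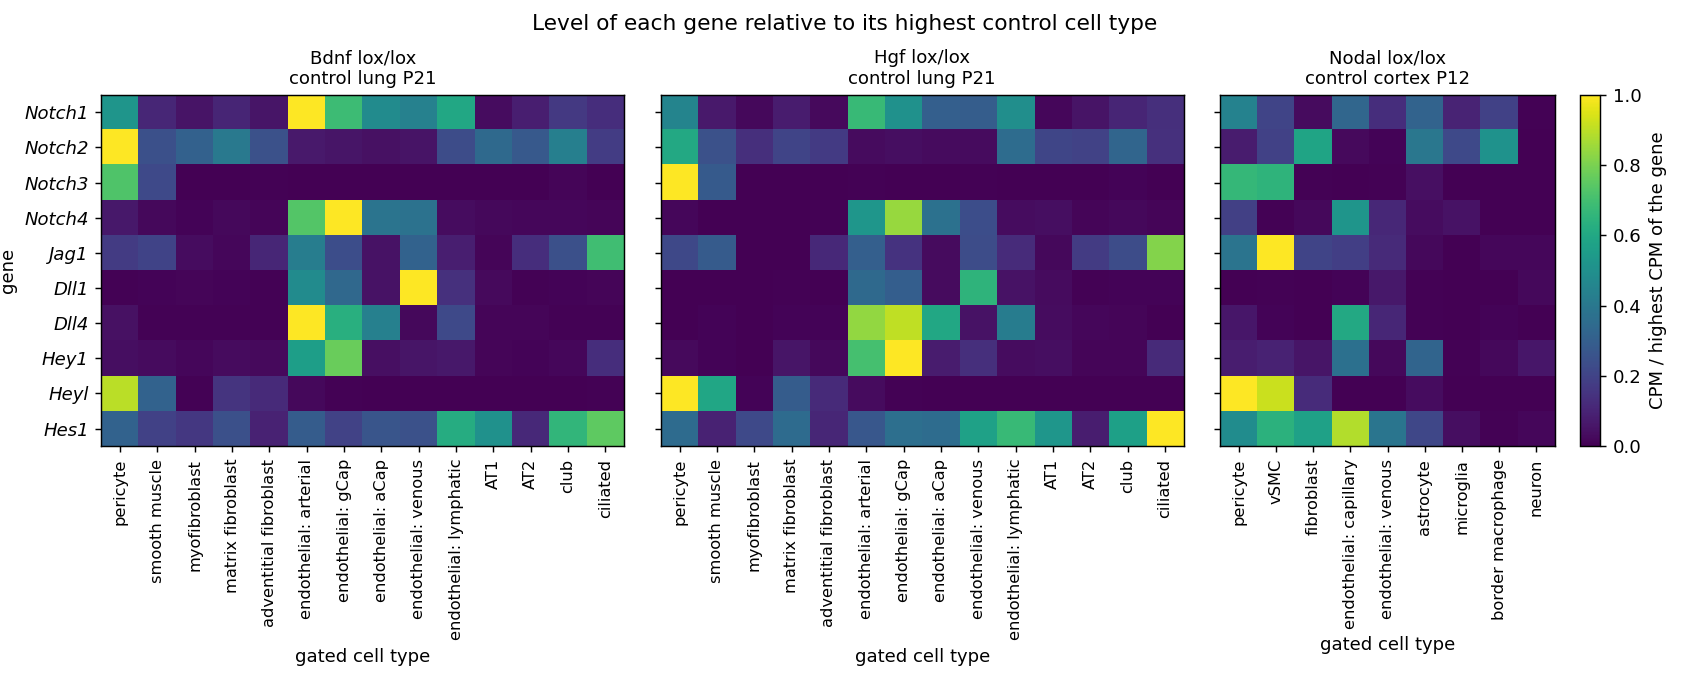
Level of each of the 10 genes (rows) in each gated cell type (columns) of the 3 control libraries, as CPM divided by that gene's highest CPM in any column, on a colour scale from 0 to 1. Notch3 and Heyl are bright in pericytes and cortical vSMCs and dimmer in lung smooth muscle cells, whereas Notch4, Dll4 and Hey1 are bright in arterial or capillary endothelial columns and Dll1 in lung venous cells.

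Notch3 (ENSMUSG00000038146.10, chr17:32339794-32385893, minus strand on GRCm39) encodes the receptor that arterial smooth muscle cells and pericytes depend on. Its level in pericytes was 1833 CPM (1705 to 1968) in Bdnf lox/lox lung, 2531 CPM (2290.2 to 2790.3) in Hgf lox/lox lung and 1683 CPM (1620.3 to 1747) in Nodal lox/lox cortex. In the iPCKO libraries it was 2022, 2419 and 1582 CPM, in the same order. The log2 ratio of control lung over control cortex pericytes was 0.12 (0.01 to 0.24) for the Bdnf control and 0.59 (0.43 to 0.74) for the Hgf control, and the 2 Hgf lungs stood above the other 4 libraries. The cortex and lung parted in the other mural cells. Vascular smooth muscle cells (vSMCs) of the cortex held 1649 CPM in the control and 1764 CPM in the iPCKO library, and the log2 ratio of control pericytes over vSMCs was 0.03 (-0.09 to 0.15), an interval that includes 0. Lung smooth muscle cells held 560.2 and 407 CPM in the Bdnf pair and 719.6 and 324 CPM in the Hgf pair, so that lung pericytes exceeded them by 3.27-fold and 3.51-fold in the control libraries. The lung gate takes in airway as well as vascular smooth muscle, whose shares were not separated here.

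Outside mural cells, Notch3 was at 32.1 and 27.0 CPM in club cells of the control lungs and at 107 CPM in cortical astrocytes, where 54.4% of cells at a median of 10059 UMIs had a Notch3 UMI. Microglia of the same library held 2.68 CPM, and 1.60% of them had a UMI at a median of 6134 UMIs. Endothelial cells held 5.61, 10.6 and 3.54 CPM in the control libraries, below the level in barcodes under 100 UMIs, taken as free RNA, of 25.1, 30.3 and 217 CPM. The astrocytes and the club cells of the Hgf control were also below that level, and the part of free RNA in their values was not tested. Lymphatic endothelial cells, 107 to 154 per library, had no Notch3 UMI in any of the 4 lungs, with exact Poisson upper limits of 3.89 to 7.06 CPM.

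Notch2 (ENSMUSG00000027878.13, chr3:97920800-98057677, plus strand) encodes a receptor used by many tissues and differed between lung and cortex pericytes. In pericytes it was at 311 and 387 CPM in the Bdnf lungs and at 188 and 422 CPM in the Hgf lungs. In cortex pericytes it was at 23.8 and 26.5 CPM. The 4 lung values lay above both cortex values, and the log2 ratio of control lung over control cortex was 3.70 (3.18 to 4.27) for the Bdnf control and 2.98 (2.24 to 3.70) for the Hgf control. Organ, age and preparation differed together in that and every other comparison of lung with cortex and cannot be told apart. Within the lung, pericytes exceeded smooth muscle cells by 4.06-fold and 2.40-fold in the control libraries. In the cortex the order was the opposite, since control vSMCs held 60.3 CPM against 23.8 CPM in pericytes, a log2 ratio of pericytes over vSMCs of -1.35 (-2.10 to -0.55). Barcodes under 100 UMIs held 124, 103 and 53.0 CPM of Notch2 in the 3 controls, above cortex pericytes and lung smooth muscle cells and near cortical vSMCs, and the part of free RNA in those values was not tested. The highest cortical Notch2 levels were in fibroblasts, border macrophages and astrocytes, at 181, 158 and 124 CPM in the control. Endothelial cells held 20.2, 15.2 and 6.44 CPM in the 3 controls, the lymphatic subtype alone reaching 72.7 and 109 CPM in the lungs.

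**Figure D2:**
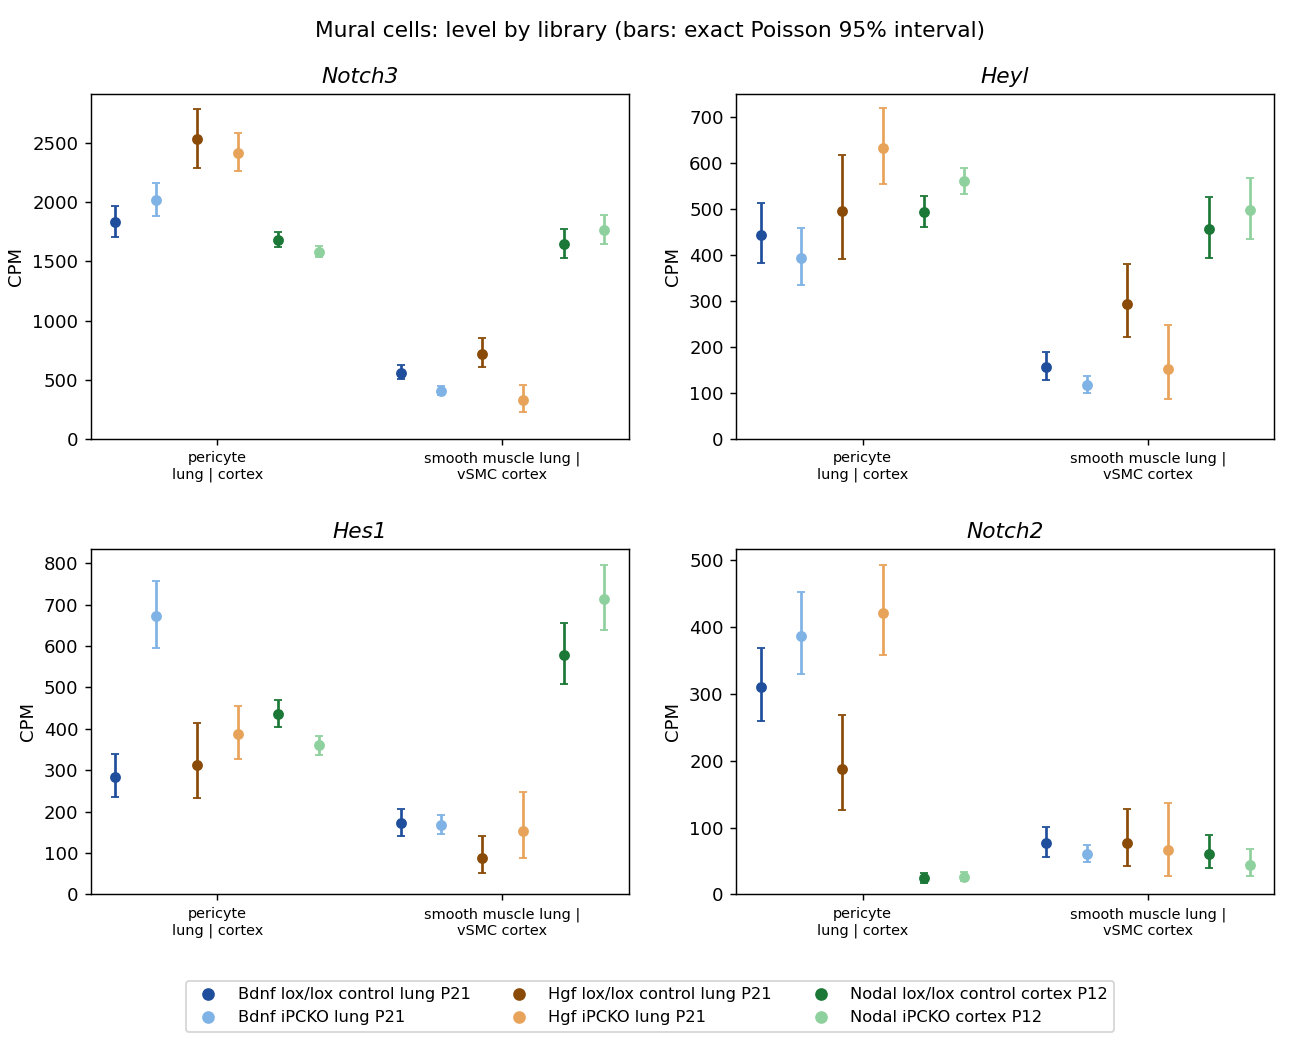
Notch3, Heyl, Hes1 and Notch2 in mural cells, as CPM on linear axes from 0, with 1 point per library (pericytes of lung and cortex, smooth muscle cells of lung, vSMCs of cortex) and bars for the exact Poisson 95% interval. Notch2 of pericytes is at 188 to 422 CPM in the 4 lung libraries and at 23.8 and 26.5 CPM in the 2 cortex libraries, and Hes1 of Bdnf iPCKO pericytes, at 672 CPM, is above the other 5 pericyte points.

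Notch1 (ENSMUSG00000026923.16, chr2:26347915-26406675, minus strand) encodes the main endothelial receptor. Arterial endothelial cells of the lung held 761, 768, 512 and 674 CPM (Bdnf lox/lox, Bdnf iPCKO, Hgf lox/lox and Hgf iPCKO, the order used for the 4 lungs from here on). Venous endothelial cells held 335, 375, 226 and 173 CPM. Arterial cells were thus above venous cells in all 4 lungs, by 2.27-fold in each control library. Pericytes also carried Notch1, at 398, 436, 345 and 363 CPM in lung and at 337 and 379 CPM in control and iPCKO cortex, and here the organs did not part: the log2 ratio of lung over cortex had intervals that include 0 for both controls. Pericytes exceeded lung smooth muscle cells by 4.80-fold and 6.44-fold and cortical vSMCs by 2.14-fold in the control libraries. In the cortex, control astrocytes held 243 CPM and capillary endothelial cells 252 CPM. Barcodes under 100 UMIs held 184, 135 and 233 CPM of Notch1 in the controls. AT1 and AT2 cells, lung smooth muscle cells and cortical vSMCs lay below these values, and the part of free RNA in their levels was not tested.

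Notch4 (ENSMUSG00000015468.16, chr17:34783220-34807477, plus strand) encodes a receptor found mainly in endothelium. General capillary endothelial cells (gCap) of the lung held 338, 314, 286 and 276 CPM, and aerocytes (aCap), the large capillary cells of the gas-exchange surface, held 129, 104, 127 and 84.7 CPM. gCap cells were above aCap cells in each library, with a log2 ratio of 1.38 (1.21 to 1.56) in the Bdnf control and of 1.17 in the Hgf control, whose interval also lay above 0. Lymphatic endothelial cells were low, at 11.6 and 11.6 CPM in the controls. Cortical capillary endothelial cells held 176 and 163 CPM. Cortex pericytes held 64.2 and 60.2 CPM of Notch4, and their endothelial marker genes summed to 311 and 416 CPM. Barcodes under 100 UMIs of the same libraries held more Notch4, at 90.5 and 67.5 CPM, and the part of free RNA and of endothelial RNA in the pericyte values was not tested.

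The 3 ligands differed in their pattern along the vessel. Dll4 (ENSMUSG00000027314.8, chr2:119156170-119166443, plus strand), the ligand of arterial and sprouting endothelium, was at 534, 336, 448 and 512 CPM in arterial cells of the 4 lungs. It was at 336, 278, 482 and 395 CPM in gCap cells and at 232, 220.3, 320.0 and 203 CPM in aCap cells. Venous cells held 10.5, 10.7, 26.0 and 17.9 CPM. Venous cells were thus under every other endothelial subtype in all 4 lungs, and arterial cells exceeded them by 50.4-fold in Bdnf lox/lox and 17.0-fold in Hgf lox/lox lung. Arterial and gCap cells changed places in rank between the 2 control lungs. Cortical capillary cells held 322 and 362 CPM. An antisense lncRNA, Gm14207, overlaps the start of Dll4. It had the closest pattern to Dll4 of 19104 genes over 38 points, each a cell type or endothelial subtype of 1 control library (Pearson r of log2(CPM + 1) 0.903).

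Dll1 (ENSMUSG00000014773.15, chr17:15587276-15597134, minus strand) encodes a ligand of the same receptors, and it differed from Dll4 in the place of venous cells. Venous endothelial cells held 335, 377, 218 and 104 CPM, arterial cells 162, 155, 115 and 43.7 CPM, and aCap cells 16.6, 19.7, 10.4 and 22.6 CPM. gCap cells of the controls held 113 and 101 CPM, between arterial and aCap cells. Venous cells led in the first 3 lungs, and in Hgf iPCKO lung they were at about the level of the gCap cells, which held 117 CPM. The log2 ratio of arterial over venous cells was -1.05 (-1.27 to -0.84) and -0.92 (-1.30 to -0.57) in the controls, opposite in sign to that of Dll4, at 5.66 (5.22 to 6.16) and 4.09 (3.63 to 4.61). gCap cells exceeded aCap cells 6.77-fold and 9.50-fold. In the cortex Dll1 was close to absent from endothelium, at 4.94 and 6.19 CPM, and the control lungs exceeded the control cortex by 29.1-fold and 17.6-fold. The 27 and 54 venous cells of the cortex held 22.0 and 30.5 CPM. Oligodendrocyte precursors of Nodal iPCKO cortex held 101 CPM, from 12 UMIs in 22 cells.

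Jag1 (ENSMUSG00000027276.9, chr2:136923373-136958693, minus strand), the ligand through which endothelial and mural cells reach mural NOTCH3, was highest in ciliated cells of the lung, at 199, 162, 234 and 148 CPM. Arterial endothelial cells held 122, 114, 86.6 and 55.0 CPM and aCap cells 8.28 to 18.3 CPM, so that aCap cells were low in Jag1 in all 4 lungs. Venous cells of the controls held 89.8 and 66.6 CPM. The log2 ratio of arterial over venous cells was 0.44 (0.16 to 0.72) in the Bdnf control. In the Hgf control it was 0.38 (-0.11 to 0.85), an interval that includes 0. In the cortex the leading cells were vSMCs, at 287 and 310.0 CPM, ahead of pericytes at 111 and 101 CPM, with a control log2 ratio of pericytes over vSMCs of -1.38 (-1.72 to -1.03). Lung pericytes held 50.4, 51.1, 62.6 and 66.8 CPM, below the cortex pericytes, although the log2 ratio of Hgf control lung over control cortex, -0.75 (-1.90 to 0.09), has an interval that includes 0. Barcodes under 100 UMIs held 60.8, 61.2, 57.5 and 61.4 CPM of Jag1 in the 4 lungs, near the lung pericyte levels. In control and iPCKO cortex they held 66.3 and 61.3 CPM, and the part of free RNA in the pericyte values was not tested.

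**Figure D3:**
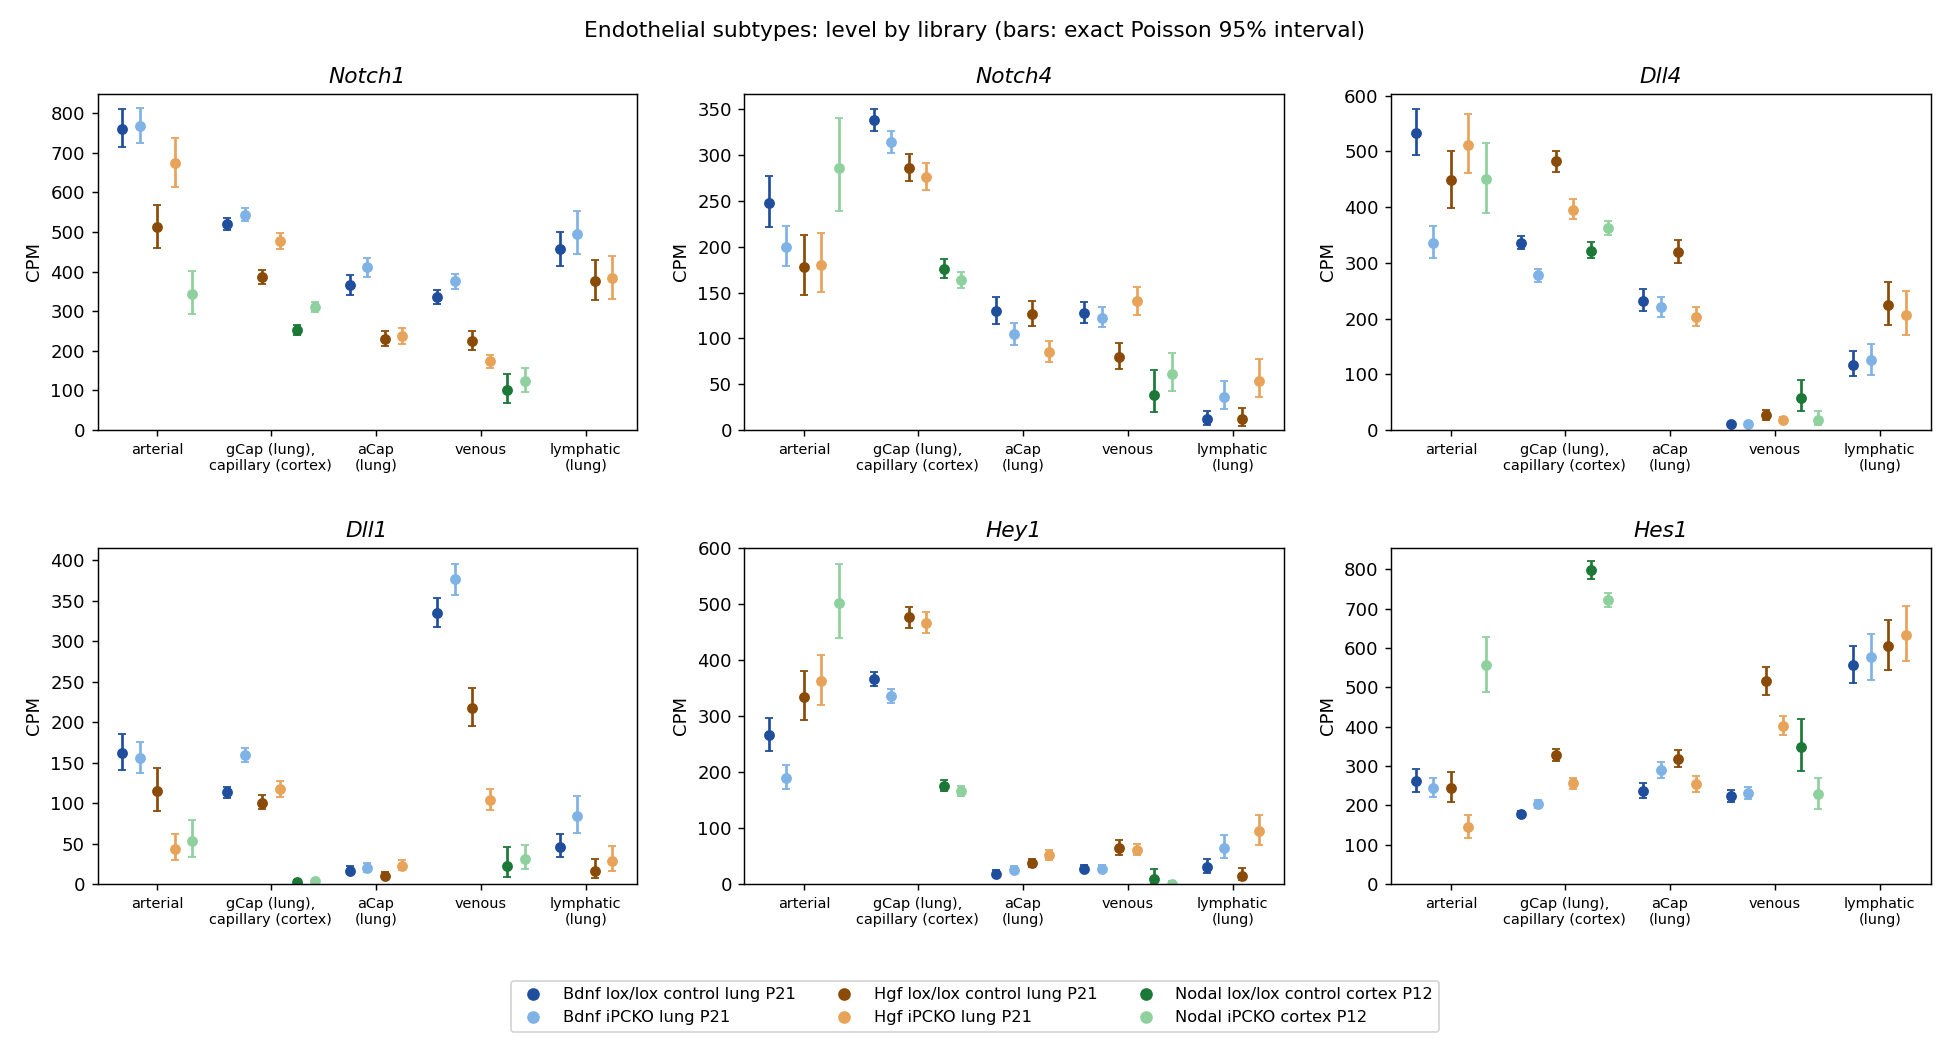
Notch1, Notch4, Dll4, Dll1, Hey1 and Hes1 in endothelial subtypes, as CPM on linear axes from 0, with 1 point per library and bars for the exact Poisson 95% interval; subtypes of under 20 cells in a library are not drawn. Dll4 is low in venous cells, where Dll1 is high, and Hey1 is high in arterial and gCap cells and low in aCap cells, at 18.7 to 51.5 CPM.

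Of the targets, Heyl (ENSMUSG00000032744.6, chr4:123127349-123143682, plus strand) followed Notch3. Pericytes held 444, 392, 495 and 633 CPM in the 4 lungs and 493 and 560.5 CPM in control and iPCKO cortex. As with Notch3, vSMCs of the cortex equalled pericytes within counting error, at 456 and 497 CPM (control log2 ratio of pericytes over vSMCs 0.11 (-0.12 to 0.35)), whereas lung smooth muscle cells were lower, at 156, 117, 293 and 153 CPM. Heyl was also present in matrix fibroblasts, at 74.5, 63.1, 144 and 62.3 CPM. Cortical fibroblasts held 61.5 and 44.0 CPM, near or under the 56.0 and 61.1 CPM of barcodes below 100 UMIs. The part of free RNA in the cortical values was not tested. Notch3 was at 0 to 14.2 CPM in these fibroblasts of lung and cortex. Arterial endothelial cells held 11.0, 10.0, 14.7 and 26.8 CPM, more than venous cells in each lung.

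Hey1 (ENSMUSG00000040289.10, chr3:8726956-8732385, minus strand), a target linked to arterial identity, was highest in gCap cells, at 366, 335, 476 and 467 CPM, followed by arterial cells at 266, 189.9, 335 and 362 CPM. The capillary types parted sharply: gCap cells exceeded aCap cells by 19.4-fold and 12.9-fold in the controls, although aCap cells held Dll4 at 203 to 320.0 CPM. Cortical Hey1 was shared by capillary endothelial cells, at 176 and 167 CPM, and astrocytes, at 153 and 180.3 CPM.

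Hes1 (ENSMUSG00000022528.10, chr16:29882134-29886643, plus strand) encodes a repressor that signals other than Notch also induce, and it had the broadest pattern. In the control lungs it was led by ciliated cells, which in the 4 lungs stood, at 677, 608, 899 and 714 CPM, with lymphatic endothelial cells at 556, 576, 605 and 634 CPM and club cells at 593, 547, 511 and 521 CPM. In control cortex it was led by capillary endothelial cells at 797 CPM, vSMCs at 579 CPM and fibroblasts at 515 CPM. Endothelial Hes1 was higher in the control cortex than in the control lungs, by a log2 ratio of lung over cortex of -1.60 (-1.66 to -1.55) and -0.92 (-0.97 to -0.86) for the 2 lungs. Here too organ, age and preparation differed together. Barcodes under 100 UMIs held 206, 202 and 289 CPM of Hes1 in the controls.

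RBPJ is known to recognise the letters TGGGAA, and the 300 bases before the start of each gene's Ensembl canonical transcript were read from GRCm39 and searched for them on both strands (TGGGAA or TTCCCA). Of 21738 such windows of protein-coding genes, 26.5% hold a match, and of the 10 Notch genes 2 did: Hes1, with 2 matches that begin 49 and 35 bases before the start, and Hey1, with 1 match 175 bases before it. The windows of Hes1 (chr16:29883827-29884126, plus strand, inside the annotated span of the gene) and of Heyl (chr4:123127049-123127348, plus strand, upstream of the gene) are shown. They were picked because Hes1 in pericytes and Heyl in astrocytes are among the calls described below. Both windows are printed 5′ to 3′ with the matches in capitals, and Heyl had none. A match is a description of the letters and not a measured binding site.
Hes1: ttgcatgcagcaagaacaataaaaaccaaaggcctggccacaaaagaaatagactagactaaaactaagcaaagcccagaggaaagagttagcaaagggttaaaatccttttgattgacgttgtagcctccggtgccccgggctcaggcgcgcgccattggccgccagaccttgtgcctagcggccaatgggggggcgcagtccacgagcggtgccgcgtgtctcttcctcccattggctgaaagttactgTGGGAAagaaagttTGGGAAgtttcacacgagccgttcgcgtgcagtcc
Heyl: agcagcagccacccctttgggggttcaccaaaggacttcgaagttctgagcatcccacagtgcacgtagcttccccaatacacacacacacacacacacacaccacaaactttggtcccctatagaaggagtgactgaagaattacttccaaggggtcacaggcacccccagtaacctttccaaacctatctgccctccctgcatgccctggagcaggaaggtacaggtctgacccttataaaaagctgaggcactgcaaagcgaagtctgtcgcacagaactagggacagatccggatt

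The genes whose control pattern was most like a member's were found by the Pearson correlation of log2(CPM + 1) over 38 points. Each point was a cell type or endothelial subtype of at least 30 cells in 1 control library, without the endothelial class as a whole. Many points share a library, and the values are given as a description. Nearest to Notch3 were Foxs1 (r 0.868), Cspg4 (0.843), which encodes the pericyte proteoglycan NG2, and Slc2a4 (0.838). Heyl was nearest to Ppp1r14a (0.900), Pdgfrb (0.870) and Foxs1 (0.864), so that Foxs1 stood beside both. Notch4 was nearest to the VEGF receptor gene Flt1 (0.870), Fam124b (0.852) and Ifi44 (0.832), and Dll4 after Gm14207 to Cldn5 (0.898) and Bcl6b (0.885). Flt1 and Cldn5 are endothelial markers of the gate that made the points, so their closeness to endothelial genes is in part built in. Pdgfrb is a listed marker that was left out of the gate. Dll1 was nearest to Gm56924 (0.900), Gata3 (0.866) and Mmrn2 (0.866), and Notch1 to Sox13 (0.816), Stard8 (0.745) and Msh5 (0.742). The nearest gene was less close for Hey1 (4921504E06Rik, 0.751), Notch2 (the pseudogene Cd63-ps, 0.752, and its parent Cd63, 0.729), Hes1 (Ephx1, 0.715) and Jag1 (Ccdc160, 0.692). Reads of a pseudogene and its parent cannot be told apart with certainty.

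To compare genotypes, a gene was called where its CPM differed at least 1.5-fold, its counting interval left out equality, and both libraries together held at least 20 UMIs of it in at least 20 cells each. Shares of all genes called count both directions, except where higher or lower is stated, as for AT1 and ciliated cells of the Hgf pair and for microglia. The 2 control lungs, neither with a deletion, were compared in the same way. They also differed in depth, at medians of 7118 and 3911 UMIs per barcode, and in the UMI minimum, so that differences between the pairs enter this comparison that an iPCKO library and its own control need not have. In endothelial cells, 5 of the 10 genes were called between Hgf lox/lox and Bdnf lox/lox lung, where 23.4% of all genes tested were called. Notch1 was at 502 CPM in the Bdnf and 330.1 CPM in the Hgf control, Jag1 at 67.5 and 39.8 CPM, and Dll1 at 145 and 88.1 CPM, all lower in the Hgf control. Hes1 was at 224 and 360.3 CPM and Notch3 at 5.61 and 10.6 CPM, both higher in the Hgf control. Notch2 of pericytes was called between the controls too, with a log2 ratio of Hgf over Bdnf of -0.71 (95% counting interval -1.36 to -0.15), in a pair with 14.8% of genes called. Over all cell types with their endothelial subtypes, 35 of 121 member tests were called between these controls (28.9%), against 19.8% of all gene tests. Of the 97 calls of members in all 4 comparisons, 56 were of genes whose level in that cell type was under that in barcodes below 100 UMIs in both libraries (14 of 19 in the Bdnf, 17 of 34 in the Hgf and 8 of 9 in the Nodal pair, and 17 of 35 between the controls), and the part of free RNA in them was not tested.

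**Figure D4:**
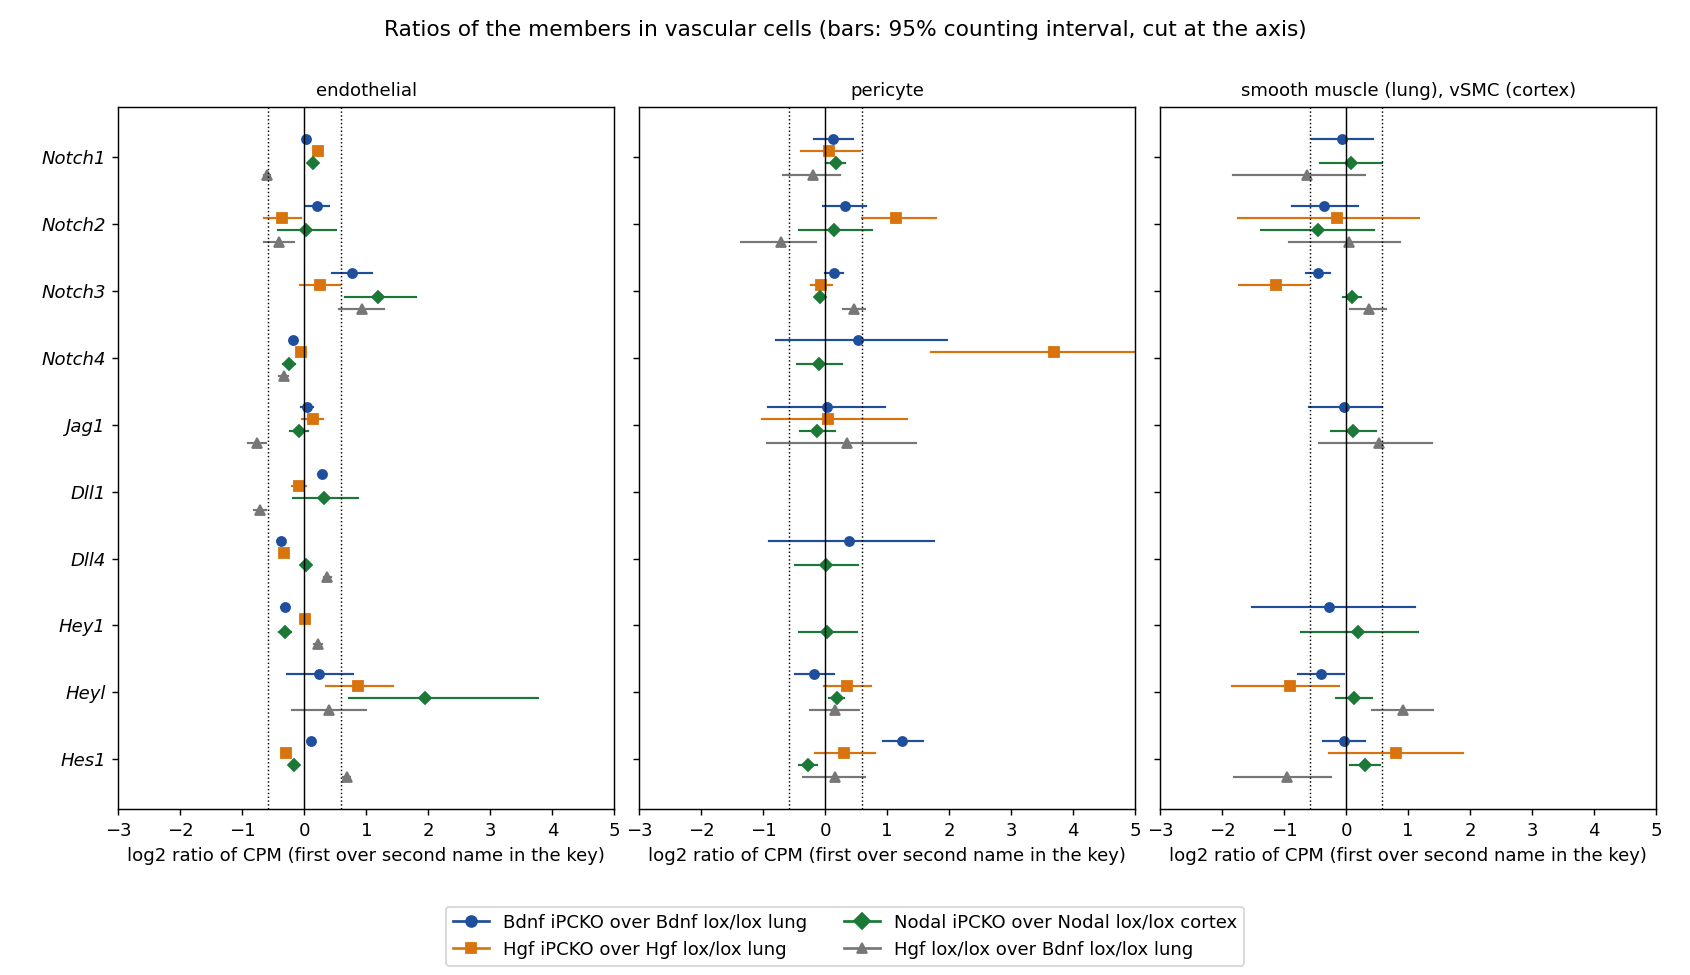
Log2 ratio of CPM (horizontal axes) for the 10 genes (rows) in endothelial cells, pericytes and smooth muscle cells or vSMCs, for the 3 iPCKO pairs and for the 2 control lungs; bars are 95% counting intervals cut at the axis, dotted lines mark 1.5-fold, and genes under 20 UMIs are not drawn. Hes1 of Bdnf iPCKO pericytes and Notch2 and Notch4 of Hgf iPCKO pericytes lie to the right of the dotted line, while the Nodal pair lies inside it in pericytes and vSMCs.

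In Bdnf iPCKO lung, Hes1 of pericytes differed. It was at 283 CPM (234 to 339) in the control and 672 CPM (595 to 756) in the iPCKO library, a log2 ratio of 1.24 (95% counting interval 0.93 to 1.57) from 118 and 276 UMIs, and the 4 other pericyte libraries lay between 313 and 437 CPM. Hes1 was the 1 called gene of the 8 members tested in these pericytes, where 10.1% of all genes tested were called. The level did not rest on 1 cell: without the cell with the most Hes1 UMIs it was 263 and 622 CPM. With each cell thinned to 1500 UMIs, 29.4% and 48.0% of pericytes had a Hes1 UMI, against 1.59% and 7.32% of immune cells; unthinned, the shares were 49.0% and 67.2% at medians of 3546 and 2953 UMIs in pericytes, and 12.7% and 14.6% at medians of 5478 and 5010 UMIs in immune cells. Immediate-early genes, which many stimuli and cell dissociation induce, moved with it: a list of 10 of them (Fos, Fosb, Jun, Junb, Egr1, Ier2, Atf3, Zfp36, Btg2 and Dusp1), chosen after the Hes1 values were seen, summed to 3815 CPM in the control and 12175 CPM in the iPCKO pericytes. Their part in the Hes1 value was not tested.

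Heyl and Notch3 of the same pericytes stayed within the call limits, at log2 ratios of -0.18 (95% counting interval -0.49 to 0.13) and 0.14 (95% counting interval -0.00 to 0.28), and Notch1 was at 0.13 and Notch2 at 0.31. Myofibroblasts gave another Hes1 difference, at 146 and 298 CPM with a log2 ratio of 1.03 (95% counting interval 0.88 to 1.17), and 3 of 10 members were called higher there in a pair with 9.13% of genes called. The other two were low, Heyl at 2.69 and 6.17 CPM and Notch4 at 2.96 and 6.59 CPM. In myofibroblasts the immediate-early list summed to 49147 CPM in the control and 45396 CPM in the iPCKO library. In smooth muscle cells Hes1 was at 172 and 168 CPM, and none of the 7 members tested was called against 10.4% of genes. In endothelial cells as a whole 1 of 10 members was called against 9.88% of genes, Notch3 at 5.61 and 9.56 CPM, both under the free RNA level of the control.

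Dll4 of arterial endothelial cells was lower in Bdnf iPCKO lung, at 534 CPM in the control and 336 CPM in the iPCKO library, with a log2 ratio of -0.67 (95% counting interval -0.83 to -0.50); it was the 1 of 10 members called there, against 9.47% of genes. The arterial cells also held less Hey1, at 266 and 189.9 CPM, a log2 ratio of -0.49 (95% counting interval -0.71 to -0.26) that misses the 1.5-fold limit, and about the same Notch1. In gCap cells Dll4 was at 336 and 278 CPM with a log2 ratio of -0.28 (95% counting interval -0.35 to -0.20), and no member was called against 10% of genes. Over all cell types of the Bdnf pair, 17 of 141 member tests were called higher and 2 lower in the iPCKO library (13.5%), against 10.6% of all gene tests. Several of the other calls were of low levels: Notch3 and Dll1 in AT2 cells, Notch3 in AT1 cells and adventitial fibroblasts, and Jag1 in AT1 cells were each at or under 25.2 CPM in both libraries, with 11% of genes called in AT2 cells, 14.8% in AT1 cells and 10% in adventitial fibroblasts.

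In the Hgf pair, pericytes had 2 of 7 tested members called, Notch2 and Notch4, against 16% of all genes. Notch2 was at 188 CPM (127 to 268) in the control and 422 CPM (359 to 493) in the iPCKO pericytes, a log2 ratio of 1.15 (95% counting interval 0.60 to 1.78), and the Bdnf control lay between them at 311 CPM. Notch4 was at 6.26 CPM, from 1 UMI, and at 120.2 CPM, from 45 UMIs, a log2 ratio of 3.69 (95% counting interval 1.71 to 9.60). Endothelial marker genes in these pericytes summed to 564 and 1115 CPM, with none of the 10 at 0, and their part in the Notch4 value was not tested. Of other members with mainly endothelial expression, Dll4 was at 0 and 13.4 CPM and Hey1 at 12.5 and 8.01 CPM in the same pericytes, each gene from fewer than 20 UMIs in both libraries together. Notch3, Heyl and Hes1 of the pericytes had log2 ratios of -0.07, 0.35 and 0.30 and were not called.

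Smooth muscle cells of Hgf iPCKO lung held less Notch3 and Heyl. Notch3 was at 719.6 CPM in the control and 324 CPM in the iPCKO library, a log2 ratio of -1.13 (95% counting interval -1.74 to -0.60), and Heyl was at 293 and 153 CPM, a log2 ratio of -0.91 (95% counting interval -1.84 to -0.12). They were the 2 members called of 4 tested, against 22.7% of genes, in 76 and 56 cells. The smooth muscle markers that define these cells summed to 29133 and 13802 CPM and the pericyte markers in them to 1470.0 and 782 CPM, with 2 and 3 of 8 at 0, and the part of either in the Notch3 and Heyl values was not tested. The Bdnf pair had the same sign without a call, with log2 ratios in smooth muscle of -0.46 (95% counting interval -0.65 to -0.27) for Notch3 and -0.41 (95% counting interval -0.77 to -0.04) for Heyl, and the Heyl ratio between the 2 controls was 0.92 (95% counting interval 0.42 to 1.39). Median-of-ratios scaling in place of all UMIs lowers the ratios of this cell type by 0.27 on the log2 scale. Both genes were called lower with it, but a shift in that direction could not have removed these calls. With 1500 UMIs required of each cell Heyl was no longer called, at a log2 ratio of -0.82.

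In endothelial cells of the Hgf pair 1 of 10 members was called against 25.6% of genes, Heyl at 3.34 and 6.13 CPM. Of the subtypes, gCap cells also had 1 of 10 members called, Notch3, which was higher in the iPCKO library. Over all cell types and subtypes of this pair 22.9% of gene tests were called. In venous cells 2 of 9 were called: Dll1 was at 218 and 104 CPM, a log2 ratio of -1.06 (95% counting interval -1.30 to -0.83), and Notch4 at 79.3 and 140.3 CPM, a log2 ratio of 0.82 (95% counting interval 0.52 to 1.13), in a pair with 23.8% of genes called. Dll1 was lower in arterial cells as well, at 115 and 43.7 CPM, but higher in aCap cells, at 10.4 and 22.6 CPM. Barcodes under 100 UMIs held 24.5 and 44.8 CPM of Dll1 in the control and iPCKO library. Both aCap levels lay under these values and the iPCKO arterial level was near them, and the part of free RNA was not tested. In arterial cells Jag1, at 86.6 and 55.0 CPM, and Hes1, at 245 and 144 CPM, were called lower beside Dll1, 3 of 8 members against 21.5% of genes, though the call of Jag1 held under 3 of 7 alternatives. In aCap cells 3 of 9 were called, Dll1, Jag1 (higher, at 8.28 and 18.3 CPM) and Dll4, which was at 320.0 and 203 CPM, a log2 ratio of -0.65 (95% counting interval -0.81 to -0.50), with 22.5% of genes called. Both Jag1 levels of aCap cells also lay under those of barcodes below 100 UMIs, at 57.5 and 61.4 CPM. Lymphatic cells had 2 of 8 members called, both higher, with 17.7% of genes called: Hey1 at 14.9 and 93.8 CPM, from 9 and 49 UMIs, with a log2 ratio of 2.59 (95% counting interval 1.61 to 3.86), and Notch4 at 11.6 and 53.6 CPM. The Hey1 ratio was 1.46 with 1 more marker required per cell. Both lymphatic Notch4 levels lay under those of barcodes below 100 UMIs, at 43.6 and 56.4 CPM. The control Hey1 level did so as well, against 53.9 CPM, and the part of free RNA was not tested. In Bdnf iPCKO lung Hey1, Notch4 and Dll1 of lymphatic cells were called higher, 3 of 8 members, at log2 ratios of 1.07, 1.60 and 0.86, with 9.86% of genes called. The call of Hey1 there held under 6 of 7 alternatives, with a lowest log2 ratio of 0.50.

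AT1 cells, the flat cells of the alveolar wall, had 5 of 9 tested members called higher and 0 lower in Hgf iPCKO lung. There 11.5% of genes were called higher, a share that leaves out genes called lower. The 5 members were Notch1 at 14.1 and 37.2 CPM, Notch3 at 2.52 and 14.7 CPM, Notch4 at 12.6 and 23.7 CPM, Dll4 at 17.2 and 29.7 CPM, and Hey1 at 16.9 and 34.7 CPM. Each of these levels lay under that of barcodes below 100 UMIs of its library, which was also higher in the iPCKO library: 135 and 202 CPM for Notch1, 30.3 and 40.2 CPM for Notch3, 43.6 and 56.4 CPM for Notch4, 76.8 and 104 CPM for Dll4, and 53.9 and 75.3 CPM for Hey1. Endothelial markers in these AT1 cells summed to 798 and 1077 CPM and pericyte markers to 20.4 and 64.1 CPM, with none of the 10 and none of the 8 at 0, and the part of free RNA and of these markers was not tested. Ciliated cells had 3 of 5 members called lower against 7.48% of genes called lower, Notch1 at 104 and 49.3 CPM, Jag1 at 234 and 148 CPM and Hey1 at 56.7 and 31.2 CPM. Both Notch1 levels and the iPCKO Hey1 level of ciliated cells lay under those of barcodes below 100 UMIs, and the part of free RNA was not tested. Over all cell types of the Hgf pair, 18 of 113 member tests were called higher and 16 lower (30.1%), against 22.9% of all gene tests.

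In the Nodal pair, no member was called in the mural cells of the cortex. None of the 9 members tested in pericytes was called against 6.69% of genes, and none of the 7 tested in vSMCs against 9.35%. Notch3 of pericytes had a log2 ratio of -0.09 (95% counting interval -0.16 to -0.02), Heyl 0.18 (95% counting interval 0.06 to 0.31), Notch1 0.17 (95% counting interval 0.02 to 0.32) and Hes1 -0.28 (95% counting interval -0.42 to -0.14), so that differences of 1.5-fold lay outside each of these counting intervals. In vSMCs the log2 ratio was 0.10 (95% counting interval -0.05 to 0.25) for Notch3 and 0.11 (95% counting interval -0.25 to 0.48) for Jag1. Of other pathway genes 3 of 26 were called in vSMCs, all higher: Hey2, a target of arterial endothelium and smooth muscle, at 128 and 215 CPM from 53 and 98 UMIs (log2 ratio 0.75, 95% counting interval 0.26 to 1.26), Numbl and Mib1. In pericytes Rbpj was the pathway gene called, at 95.8 and 60.2 CPM (log2 ratio -0.67, with a 95% counting interval that lay below 0), from counts that are not whole because reads were spread over more than 1 locus. Hey2, Mib1 and Rbpj were chosen for naming after their values were seen. None of the 9 members tested in capillary endothelial cells was called against 6.63% of genes, with Dll4 at 322 and 362 CPM and Hes1 at 797 and 721 CPM.

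Endothelial cells of the cortex as a whole had 2 of 10 members called against 7.06% of genes, Notch3 at 3.54 and 8.19 CPM and Heyl at 0.537 and 2.24 CPM. Pericyte markers in these endothelial cells summed to 68.5 and 169 CPM, with none of the 8 at 0, and their part was not tested. The 44 arterial cells of Nodal iPCKO cortex held 88.2 CPM of Notch3, and their pericyte markers summed to 1642 CPM; the control had fewer than 20 arterial cells. Venous cells, 27 and 54 of them, held less Dll4 in the iPCKO library, at 56.5 and 18.6 CPM from 18 and 11 UMIs, and less Hes1, at 349 and 228 CPM, 2 of 6 members called with 10.8% of genes called. Barcodes below 100 UMIs held more Dll4, at 111 and 125 CPM, and in the iPCKO library more Hes1, at 252 CPM. They also held more Notch3, at 217 and 199 CPM, and Heyl, at 56.0 and 61.1 CPM, than the endothelial cells given here. The part of free RNA in these values was not tested.

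In astrocytes, the glial cells whose endfeet cover the vessels, Heyl differed within the cortex pair. It was at 16.2 CPM (13.4 to 19.3) in the control and 45.3 CPM (40.9 to 49.9) in the iPCKO astrocytes, a log2 ratio of 1.48 (95% counting interval 1.19 to 1.79) from 121 and 401 UMIs in 750 and 838 cells. Thinned to 1500 UMIs per cell, 1.87% and 6.56% of astrocytes had a Heyl UMI, against 0.229% and 0.213% of microglia. Unthinned, the astrocyte shares were 11.6% and 29.1% at medians of 10059 and 10842 UMIs, and the microglial shares 0.686% and 0.284% at medians of 6134 and 6397 UMIs. Barcodes below 100 UMIs held 56.0 and 61.1 CPM of Heyl, above both astrocyte levels, while microglia held 1.25 and 0.412 CPM; the part of free RNA in the astrocyte values was not tested. In control and iPCKO astrocytes the pericyte marker list without Pdgfrb summed to 73.0 and 70.6 CPM and the vSMC list to 14.3 and 10.1 CPM. Notch3 was at 107 and 114 CPM. Pdgfrb itself, which the transgene carries, was at 32.3 and 101 CPM in astrocytes. The immediate-early list summed to 4116 and 7289 CPM in astrocytes. The part of mural cell RNA, of the transgene or of the immediate-early response in the Heyl values was not tested.

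Heyl and Jag1, the latter at 6.28 and 10.6 CPM, were the 2 members of 10 called in astrocytes, where 7.06% of genes were called. Jag1 also lay under the level of barcodes below 100 UMIs, at 66.3 and 61.3 CPM. Of the other pathway genes 4 of 41 were called there. Hes5, a Notch target of neural progenitors and glia, was at 130.4 and 226 CPM in control and iPCKO astrocytes (log2 ratio 0.80), Nrarp, a target that feeds back on the receptor complex, at 443 and 719 CPM (0.70), and Lfng, a sugar transferase that modifies Notch receptors, at 446 and 293 CPM (-0.60). The last of the 4, the ubiquitin ligase gene Neurl1b, was at 1.80 and 4.29 CPM (1.17). These genes were chosen for naming after their values were seen. The targets were thus not called as a group, since Hes1 was at 193 and 218 CPM and Hey1 at 153 and 180.3 CPM, with log2 ratios of 0.18 and 0.24. Microglia had 2 of 7 members called lower against 7.15% of genes called lower, Hes1 at 32.3 and 19.9 CPM and Notch4 at 16.3 and 10.8 CPM. The call of Notch4 held under 4 of 7 alternatives. Cortical fibroblasts had 1 of 7 members called against 8.98% of genes, Notch3, which was lower at 14.2 and 3.94 CPM from 18 and 6 UMIs, a log2 ratio of -1.77 (95% counting interval -3.47 to -0.45). Over all cell types of the Nodal pair, 4 of 70 member tests were called higher and 5 lower (12.9%), against 8.66% of all gene tests.

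**Figure D5:**
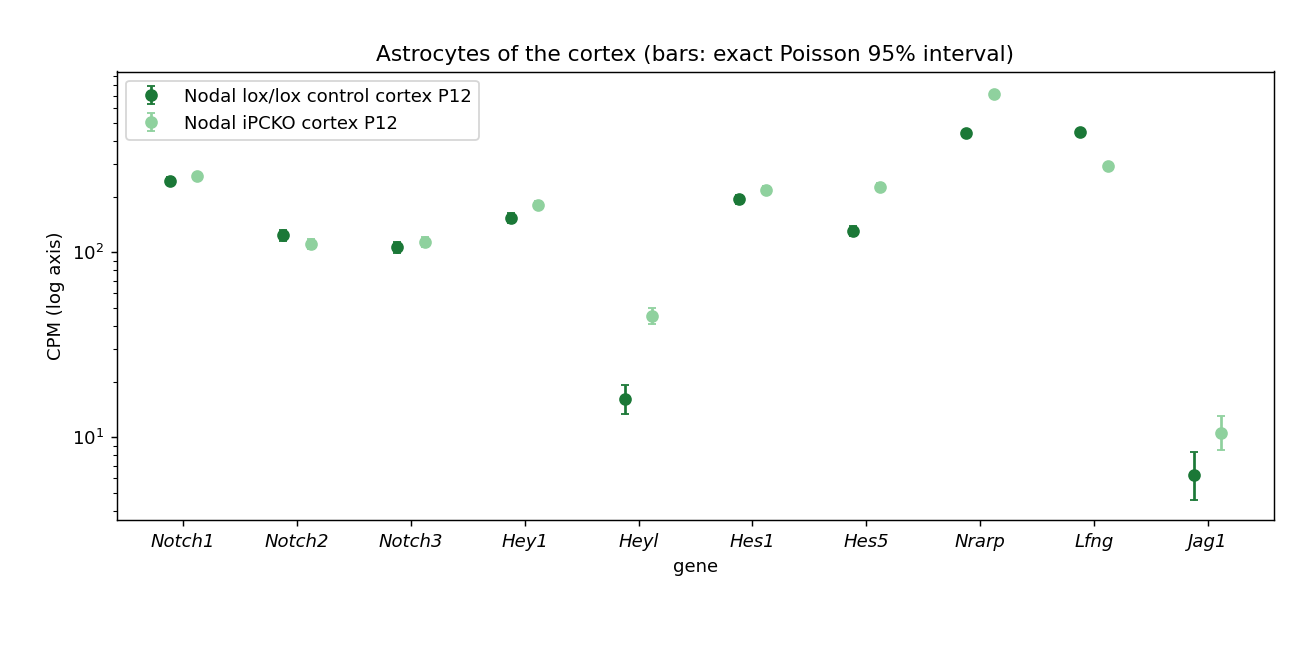
Receptors, targets, Lfng and Jag1 in astrocytes of control and Nodal iPCKO cortex, as CPM on a log axis, with 1 point per library and bars for the exact Poisson 95% interval. Heyl, at 16.2 and 45.3 CPM, shows the widest gap, Hes5, Nrarp and Jag1 are also higher and Lfng lower in the iPCKO library, and Notch1, Notch2 and Notch3 lie close together.

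The 47 other genes of the pathway, ligands, targets, nuclear cofactors, glycosyltransferases, proteases and regulators of turnover, were called in 41 of 569 tests of the Bdnf pair (18 higher, 23 lower, 7.21% against 10.6% of all gene tests), in 118 of 488 tests of the Hgf pair (66 higher, 52 lower, 24.2% against 22.9%) and in 24 of 321 tests of the Nodal pair (13 higher, 11 lower, 7.48% against 8.66%). Between the 2 control lungs 112 of 525 were called (21.3% against 19.8%). Their shares were below those of all genes in the Bdnf and Nodal pairs and slightly above them in the Hgf pair and between the control lungs.

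Among vascular cells of the controls, the genes of each role with the highest level in any control library were the following, with lung values given for the Bdnf and then the Hgf control. Of other ligands, Jag2 was at 187 CPM in cortical endothelial cells and Dlk2 at 2.41 CPM in vSMCs, and Dlk1 was at 64.8 CPM in pericytes of the Bdnf control but had no UMI in those of the Hgf control. Of other targets, Nrarp was at 371 CPM in vSMCs, and in lung smooth muscle cells Hey2 was at 80.9 and 134 CPM and Hes6 at 7.63 and 30.8 CPM, from 5 and 6 UMIs. Of the nuclear cofactors, the coactivator Maml3 was at 341 and 144 CPM in lung pericytes, a difference between the controls that was called, and Snw1 at 131 and 164 CPM in lung smooth muscle cells. Lfng was at 77.2 and 120.2 CPM in lung endothelial cells, also called between the controls, its relative Mfng at 55.0 CPM in cortical endothelial cells, and Rfng at 16.8 and 36.0 CPM in lung smooth muscle cells. The receptor-cleaving protease gene Adam10 was at 229 CPM in cortical endothelial cells, and of the γ-secretase subunit genes Ncstn was at 134 and 169 CPM in lung pericytes and Aph1a at 166 and 148 CPM in lung endothelial cells. Among turnover genes, Dtx3 was at 660.1 CPM in cortex pericytes, Numb at 313 and 316 CPM in lung endothelial cells and Itch at 129.6 and 159.8 CPM in lung pericytes.

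The largest called ratios of these genes in endothelial and mural cells rested on few UMIs, whereas Lfng of Hgf endothelial cells, chosen after its values were seen, was called at 120.2 and 212 CPM from 1581 and 3246 UMIs (log2 ratio 0.82). In the Nodal pair Hey2 was at 0.644 and 2.91 CPM in endothelial cells, from 6 and 48 UMIs (log2 ratio 2.08), Numbl at 9.64 and 37.4 CPM in vSMCs (1.83) and Hes7 was seen in 14 and 9 UMIs in endothelial cells (-1.43). In the Hgf pair Maml1 was at 12.5 and 69.4 CPM in pericytes, from 2 and 26 UMIs (2.18, 95% counting interval 0.47 to 5.59), Adam17 at 97.7 and 28.6 CPM (-1.59) and Maml2 at 66.8 and 152.6 CPM (1.18) in smooth muscle cells. In the Bdnf pair Dlk1 was at 0.178 and 1.26 CPM in endothelial cells (2.68), Aph1b at 35.1 and 6.88 CPM (-2.24) and Dtx3l at 18.3 and 7.24 CPM (-1.33) in smooth muscle cells. Nrarp, read as a target in pericytes, was at 218 and 209 CPM in the Bdnf, 244 and 214 CPM in the Hgf and 358 and 445 CPM in the Nodal pair and was called in none of them.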

How the data were processed

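Single-cell suspensions were processed by the authors on the BD Rhapsody whole-transcriptome system, which counts UMIs at the 3′ end of transcripts. The authors aligned the reads with STAR 2.7.10a (STARsolo) to GRCm39 without a filter on barcodes and spread multi-mapping reads by expectation maximisation. The matrices they deposited therefore hold estimated counts of UMIs per gene and barcode, not normalized, of which 8.50 to 9.95% of entries per library are not whole. The run used standard or enhanced cell-capture beads, and which libraries used which is not given in the sources used here. Files of cell-label sequences, which hold no expression, were not used.

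Barcodes of at least 1500 UMIs (700 in the Hgf libraries) were given a cell type from marker scores; at least 3 markers had to be detected, and barcodes with a competing class were left out as possible doublets (4.11 to 20.1% of barcodes). Pdgfrb, a marker in the plan, was left out of the gate because the transgene carries it: 6.14 and 11.0% (Bdnf), 3.08 and 8.48% (Hgf), and 19.8 and 44.5% (Nodal) of control and iPCKO barcodes held a Pdgfrb UMI. UMIs were summed per library and type and divided by all UMIs of the type (CPM). Log2 ratios carry 0.5 UMI added to each count; their intervals are conditional exact binomial. Shares of cells have exact Clopper-Pearson intervals in the underlying tables, and thinning drew 1500 UMIs (700 in the Hgf libraries) from each cell. The ratio and interval code was tested on simulated data. Gene positions and upstream windows came from GRCm39 with GENCODE vM39, not the annotation of the counts; in it all members but Heyl overlap another annotated gene, mostly antisense lncRNAs, whose reads could be confused with theirs only without strand. Gm42819 and Gm42820 lie on the strand of Notch2, and Mir6996 on that of Notch1, so that strand does not separate them. Barcodes were compared between libraries by their position in the matrices, which need not be the same cell label between bead types. Libraries shared 18 to 301 such positions per pair, near the number expected by chance draws of positions (15.0 to 308) for most pairs. Nodal iPCKO cortex stood above that number with the Hgf lungs. It shared 87 with Hgf lox/lox lung (65.02 expected) and 86 with Hgf iPCKO lung (66.75 expected). Python 3.11.15 with numpy 2.4.6, scipy 1.17.1, pandas 2.3.3 and scanpy 1.11.5 was used.

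The members and lists were chosen with earlier results of these data known. All 10 members are named; other pathway genes are named if past the call in endothelial or mural cells, up to 3 per pair by size, or if among the 3 highest of their role there, of which 1 is not reported here. Alternatives were a higher or equal UMI minimum, a stricter gate, a limit of 20% mitochondrial UMIs, Scrublet, median-of-ratios scaling, a fold of 2 and no UMI minimum per gene.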

Additional observations from a re-analysis of the deposited data

How the results depend on the processing

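No paired analysis was possible because each genotype has 1 library, so no replicate could be left out or paired. No ratio of a member changed direction where it was called. Of 97 member calls over the 3 pairs and the control lungs, 79 were kept under all 7 alternatives to the ratios and 1 more, Notch4 in Hgf lymphatic cells, under each but 3 that left it too few UMIs to test; 8 were lost with median-of-ratios scaling, 7 with the higher UMI minimum (3000, or 1400 in the Hgf libraries), 5 with 1500 UMIs in every library, 5 with Scrublet doublets left out (0.649 to 9.42% of barcodes), 3 with the mitochondrial limit and 2 with 1 more marker per cell. Keeping Pdgfrb in the gate, an alternative chosen after seeing the data, lost none. Among the named results, Heyl in Hgf smooth muscle, Jag1 in Hgf arterial cells, Notch3 in Bdnf endothelial and AT1 cells, Notch4 in Bdnf myofibroblasts, Hey1 in Bdnf lymphatic cells, Notch4 in Nodal microglia and Notch2 of pericytes between the control lungs lost their call under at least 1 alternative; the cause was not tested. Median-of-ratios scaling moved the ratios of a cell type by -0.27 to 0.157 on the log2 scale. Pericyte Notch3 moved by less than its counting interval under each alternative. Counts of calls stayed within 1.5 times the stated ones except under a stricter fold and, for members lower in the Bdnf pair, under the mitochondrial limit (1). A fold of 2, which is stricter by construction, left 11 members higher and 0 lower in the Bdnf pair (other pathway genes 11 and 9), 10 and 7 in the Hgf pair (35 and 23), 3 and 2 in the Nodal pair (6 and 6), and 6 and 4 between the control lungs (21 and 25). Depth limits which members could be compared: of the 10, 7 reached 20 UMIs in Hgf pericytes (85 control cells at a median of 1788 UMIs), 4 in Hgf smooth muscle, and 2 in Hgf myofibroblasts.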
